A study of Mus musculus with 5 samples.

Results

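The genes described here encode the machinery that releases synaptic vesicles. They were taken from a list of 46 names, which holds 14 synaptotagmins, the SNARE genes *Snap25*, *Vamp1*, *Vamp2*, and *Stx1a*, and genes of priming factors, active zone scaffolds, Rab3 GTPases, and vesicle proteins. A probe set that the annotation assigns to a single symbol was found for 45 of them, among 19938 genes in all. *Vamp2* was not analysed here, since its probe set carries another symbol too. Expression was measured in retrogradely labeled neurons of the primary somatosensory area (S1) on 5 arrays, 1 each for association neurons of L6b, L5, and L2/3 and for callosal neurons of L5 and L2/3. All mice were wild-type ICR animals of postnatal day 24 that had been electroporated in utero with a tdTomato plasmid to label L2/3 neurons and had received Green RetroBeads 3 days earlier. The beads were injected into the primary motor area (M1) of the same hemisphere to mark association neurons, and into S1 of the opposite hemisphere to mark callosal neurons. About 1000 cells per group were collected by laser microdissection, the RNA was amplified, and the sources used here do not give the number of animals behind each array.

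Transmitter is released when a vesicle fuses with the membrane of the nerve terminal. The vesicle protein synaptobrevin (VAMP) pairs with syntaxin and SNAP-25 of the plasma membrane, and this SNARE complex pulls the membranes together. Munc13, CAPS, RIM, and the large scaffolds Bassoon and Piccolo dock and prime vesicles at the active zone, Rab3 tethers them there, and synapsins hold a reserve pool. Calcium that enters with an action potential binds synaptotagmin, which triggers fusion. The ATPase NSF then takes the used SNARE complexes apart with SNAP adaptor proteins.

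On the array a gene is read by a set of short probes (probe set), and the deposited values are log2 signals. The median of each array (5.71 to 5.80) was subtracted, so a value of 0 is the array median and a difference of 1 is a 2-fold difference. With 1 array per group no test was possible, and a gene was called apart where it differed by at least 2-fold. This is a rule of size, and all values describe these arrays. Of the 45 members, 43 had a signal at or above the median of at least 1 array, as did 12632 genes in all, and shares refer to these. The Munc13 gene *Unc13b* (-0.18 to -0.02) and *Doc2b*, which encodes a calcium-binding protein related to synaptotagmins, lay below it in all arrays. The signal of *Doc2b* was -0.06 in L6b, with -0.70 to -0.55 elsewhere. Over all probe sets, the Pearson correlation of any array with another was 0.918 to 0.938. Of the 43 members, 26 (60.5%) had an identical deposited value in at least a pair of arrays, against 66.7% of all genes past the filter. Subtraction of the medians can leave small differences between such arrays that the deposited values do not hold.

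The L6b array held its layer markers. L6b had the highest signal of the 5 arrays for all 8 genes of the L6b and subplate list. The gap was at least 2-fold for 6 of them, against 1.26% of all genes. The 6 genes of the L5 list were mixed. In each projection, 3 were at least 2-fold higher in L5 than in L2/3 (3.48% and 4.08% of all genes) and 1 was lower (7.36% and 4.52%). *Etv1* was lower in association L5 (1.65) than in L2/3 (2.75), and *Rbp4* in callosal L5 (1.12) than in L2/3 (2.20). Of 6 genes of the L2/3 list, 3 were lower in L5 by that size in each projection and none was higher. The glutamatergic marker *Slc17a7* stood at 3.98 in L6b and at 3.84 to 4.47 elsewhere. Markers of some other cells also differed. All 10 myelin genes with a probe set had a positive difference between L6b and the mean of the other arrays (median 0.98). L6b was the highest array for 5 of them, against 21.3% of all genes, and by at least 2-fold for 2, against 1.26%. *Mag*, *Mobp*, *Ermn*, *Cnp*, and *Cldn11* were highest in an L5 array, *Mag* with 3.96 in association L5 and 1.47 in L6b. The myelin genes ran between layers as well, with a median L5 minus L2/3 difference of 0.97 in association neurons and 1.0 in callosal neurons. Of 9 glutamatergic neuron genes past the filter, 4 lay at least 2-fold below every other array in L6b, against 2.82% of all genes (median -0.92). These were *Camk2a*, with 2.41 in L6b and 4.41 to 5.75 elsewhere, *Grin2b*, *Nrgn*, and *Slc30a3*. None was higher there by that size. Of 13 GABAergic neuron genes past the filter, none lay at least 2-fold above every other array in L6b, against 1.26% of all genes (median -0.72). Below every other array by at least 2-fold were 3, against 2.82%. They were *Pvalb*, with -1.38 in L6b and 2.26 to 4.57 elsewhere, *Sst*, and *Kcnc2*. L6b was the lowest array for 6 of the 13 and the highest for 1, against 30.5% and 21.3% of all genes. *Gad1* stood at 0.45 in L6b and at 1.18 to 2.00 elsewhere, and *Gad2* at 0.25 and 0.45 to 2.18. *Slc32a1*, at 1.93 in L6b, lay inside the range of 1.83 to 2.74. In such bulk samples, fewer cells of a type and less RNA per cell cannot be told apart. The part of other cells in the values below was not tested.

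In L6b association neurons, 2 members had a signal at least 2-fold above, and 3 at least 2-fold below, that of every other array. The higher genes were *Syt10*, a calcium-sensing synaptotagmin, and *Rab3b*, a Rab3 GTPase. The lower genes were the synaptotagmin *Syt4*, the plasma membrane SNARE gene *Stx1a*, and *Nsf*. These are 4.65% and 6.98% of the members, and 1.26% and 2.82% of all genes met the same rule. The 75th percentile was reached in at least 1 array by 35 of the 43 members and by 6565 of the 12632 genes, and among these the shares were 5.71% of members and 2.22% of genes for higher signals, and 8.57% and 5.35% for lower ones. A gene can enter this set through the array where it is high, as *Rab3b* did through L6b. Such shares, here and below, are thus no separate check. The median difference between L6b and the mean of the other arrays was -0.12 over the members and -0.06 over all genes. Among those that reached the 75th percentile, it was -0.165 for members and -0.135 for genes.

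**Figure D1:**
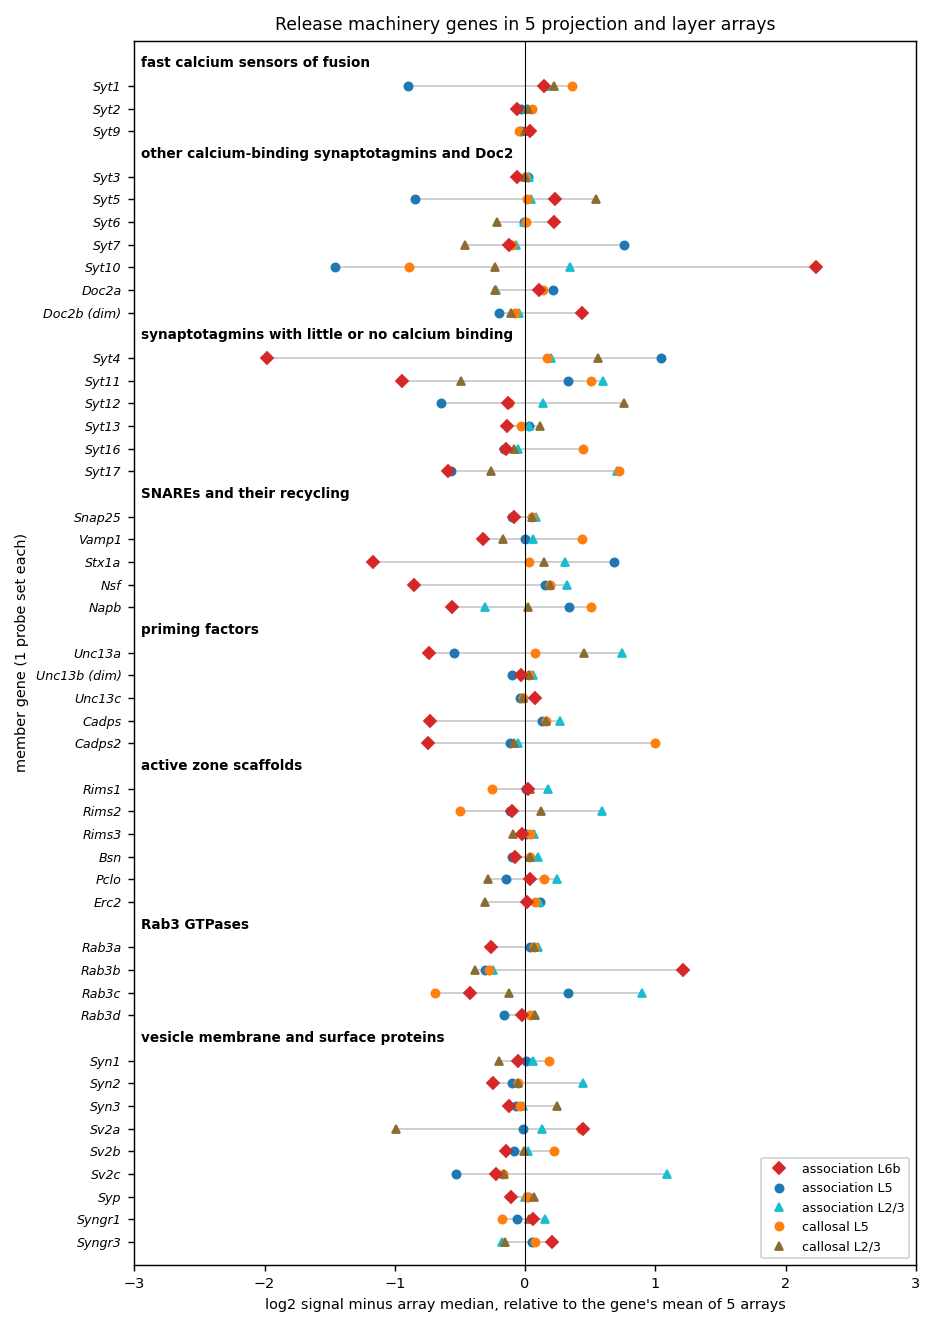
Log2 signal minus the array median, relative to each gene's own mean of the 5 arrays (horizontal axis), for the 45 measured members grouped by role (vertical axis), 1 point per array. *Syt10* and *Rab3b* have L6b (red diamonds) far to the right, with differences of 2.79 and 1.52 from the mean of the other arrays, and *Syt4* has it far to the left with -2.47. Genes marked dim stayed below the array median in all arrays.

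*Syt10* encodes a calcium sensor that in mouse olfactory bulb neurons controls the secretion of IGF-1. Among association neurons its signal was 3.57 in L6b, -0.12 in L5, and 1.68 in L2/3, and among callosal neurons it was 0.45 in L5 and 1.11 in L2/3. L6b stood 1.89 above the nearest array, association L2/3, and 2.79 above the mean of the other 4, a 6.92-fold difference. The remaining arrays were themselves spread out, with both L5 arrays below both L2/3 arrays.

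*Rab3b* encodes an isoform of the vesicle GTPase Rab3. Association neurons showed a signal of 1.80 in L6b, 0.28 in L5, and 0.34 in L2/3, and among callosal neurons it was 0.31 in L5 and 0.20 in L2/3. The other 4 arrays thus lay within 0.14 of each other and L6b stood alone, 1.52 above their mean (2.86-fold). As deposited, both L5 arrays and association L2/3 were identical at 6.05. The related *Rab3a*, the main Rab3 of forebrain synapses, had 2.60 in L6b and 2.90 to 2.96 elsewhere. *Rab3d* lay between -0.24 and 0.00 in all arrays.

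*Syt4* encodes a synaptotagmin of dense-core vesicles that lacks the calcium-dependent membrane binding of *Syt1* in rodents. Among association neurons its signal was 1.05 in L6b, 4.07 in L5, and 3.23 in L2/3, and among callosal neurons it was 3.20 in L5 and 3.59 in L2/3. L6b was 2.15 below the nearest array and 2.47 below the mean of the others, where the signal was 5.55-fold higher. It had the largest difference between L6b and the mean of the other arrays among the lower members.

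*Stx1a* encodes syntaxin-1A. For this gene, association neurons had 2.29 in L6b, 4.14 in L5, and 3.76 in L2/3, and among callosal neurons it was 3.49 in L5 and 3.60 in L2/3. L6b was 1.20 below the nearest array, and the mean of the others was 2.75-fold higher. *Nsf* had 3.69, 4.69, and 4.86 in association neurons of L6b, L5, and L2/3, and 4.73 in both callosal arrays. Its gap of 1.0 to the nearest array was at the limit of the rule, and it was 0.97 as deposited, without subtraction of the medians, so the call of *Nsf* was lost there. The calls of *Syt10*, *Rab3b*, *Syt4*, and *Stx1a* were kept under each of 4 scalings.

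The sequence just before the start of *Syt10*, *Rab3b*, *Stx1a*, and *Nsf* is shown so that the promoters of both higher genes and of the lower genes *Stx1a* and *Nsf* can be read side by side. These are the 150 bases before the gene start in RefSeq (build GRCm38.p6), 5′ to 3′ on the strand of the gene. Capitals mark 4 short motifs found on either strand, the CRE half-site TGACG, the GC box GGGCGG, the CCAAT box, and the TATA box TATAAA. Whether the array signal stems from transcripts that begin at these starts is not known.
Syt10 (chr15:89841861-89842010, minus strand): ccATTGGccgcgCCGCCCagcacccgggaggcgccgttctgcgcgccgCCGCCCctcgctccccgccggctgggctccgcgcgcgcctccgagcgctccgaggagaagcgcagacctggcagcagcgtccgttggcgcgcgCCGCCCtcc
Rab3b (chr4:108878920-108879069, plus strand): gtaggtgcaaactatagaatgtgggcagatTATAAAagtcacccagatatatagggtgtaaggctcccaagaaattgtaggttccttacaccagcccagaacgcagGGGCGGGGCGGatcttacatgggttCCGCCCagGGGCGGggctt
Stx1a (chr5:135023332-135023481, plus strand): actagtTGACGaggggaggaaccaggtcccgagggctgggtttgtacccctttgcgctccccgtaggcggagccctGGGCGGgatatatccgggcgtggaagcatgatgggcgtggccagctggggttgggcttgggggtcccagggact
Nsf (chr11:103954057-103954206, minus strand): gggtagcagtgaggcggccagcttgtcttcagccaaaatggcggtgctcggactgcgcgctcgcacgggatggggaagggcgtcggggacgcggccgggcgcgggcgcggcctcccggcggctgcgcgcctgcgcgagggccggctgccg

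The *Syt10* window held 3 GC boxes and 1 CCAAT box, and its GC content was 80.7%. The *Rab3b* window held 4 GC boxes, a pair of which overlap, and 1 TATA box, with a GC content of 52.7%. In the *Stx1a* window, with 66% GC, 1 CRE half-site and 1 GC box were found. The *Nsf* window, with 77.3% GC, held none of the 4 motifs. Of 32851 RefSeq windows of the same length, 28.6% held a GC box, 24.5% a CCAAT box, 13.3% a CRE half-site, and 7.57% a TATA box, and their median GC content was 54%. The GC box was found in the windows of *Syt10*, *Rab3b*, and *Stx1a*, and a match is a description of the sequence.

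**Figure D2:**
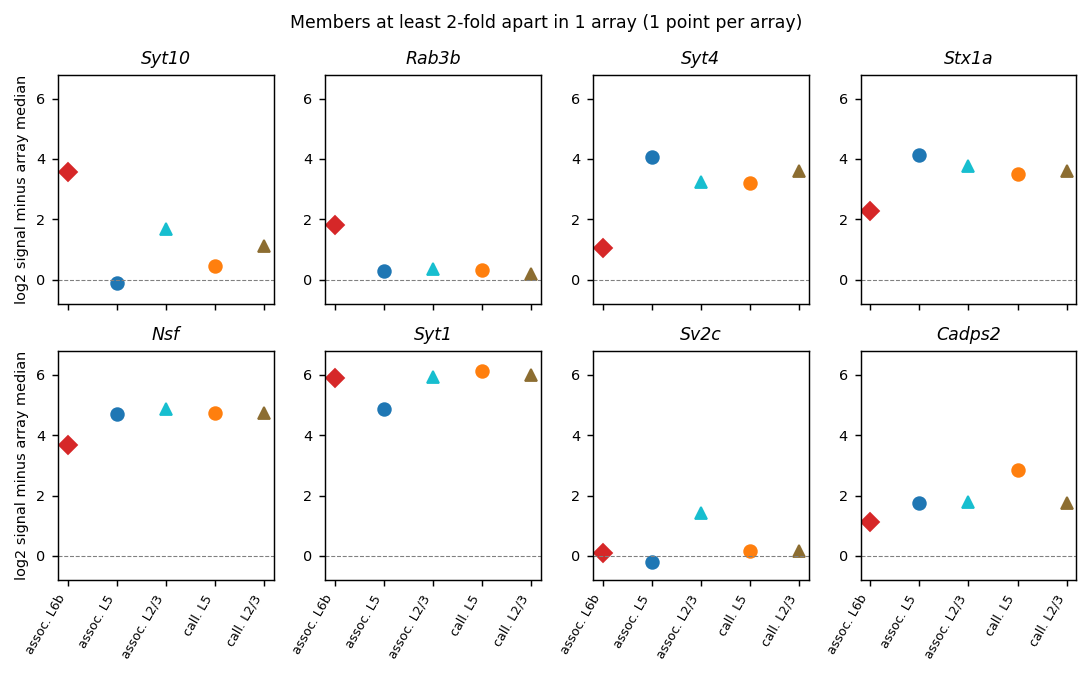
Log2 signal minus the array median (vertical axis) of the 8 members at least 2-fold apart from each other array in 1 array, with the 5 arrays along the horizontal axis and 1 point per array. L6b is alone at the top for *Syt10* (3.57) and *Rab3b* (1.80) and alone at the bottom for *Syt4* (1.05), *Stx1a* (2.29), and *Nsf* (3.69). *Syt1* is lowest in association L5 (4.87), *Sv2c* highest in association L2/3 (1.42), and *Cadps2* highest in callosal L5 (2.85).

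None of the other genes of SNAREs and their recycling was called apart in L6b. *Snap25*, which encodes a plasma membrane SNARE, had 6.73, 6.72, and 6.90 in association neurons of L6b, L5, and L2/3, and 6.87 in both callosal arrays. Its whole range of 0.18 was a 1.13-fold difference. *Vamp1*, a synaptobrevin gene, had 0.83 in L6b and 0.98 to 1.59 elsewhere. *Napb*, which encodes a SNAP adaptor of NSF in brain, had 2.83 in L6b and 3.08 to 3.90 elsewhere. In this group of 5 measured genes, 4 had their lowest signal in L6b, all but *Snap25*, as did 30.5% of all genes, and the median difference from the mean of the other arrays was -0.70.

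No gene of a priming factor was called apart in L6b. *Unc13a*, the gene of Munc13-1, had 2.15, 2.34, and 3.63 in association neurons of L6b, L5, and L2/3, and 2.96 and 3.34 in callosal neurons of L5 and L2/3. It was read by 3 probe sets that did not run together. The difference of L6b from the mean of the other arrays was -0.92 in the probe set used and -1.20 and 0.47 in the remaining ones. *Cadps*, which encodes CAPS1, had 2.73 in L6b and 3.59 to 3.73 elsewhere. *Unc13c*, with 7 probe sets, stood at 0.20 in L6b and at 0.08 to 0.11 elsewhere in the one used. Of the 4 genes of this group past the filter, *Cadps*, *Cadps2*, and, in the probe set used, *Unc13a* had their lowest signal in L6b, as did 30.5% of all genes, and *Unc13c* had its highest there. In another probe set of *Unc13a*, L6b stood at 2.37, above association L5 at 1.16 and association L2/3 at 1.80. The median difference over the 4 genes was -0.91.

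The active zone scaffolds had no gene called apart in L6b, and their differences from the mean of the other arrays were -0.12 to 0.05 (median -0.01, 6 genes). *Rims1*, a scaffold gene that links Rab3 to the active zone, had 3.40 in L6b and 3.13 to 3.56 elsewhere. *Rims2* had 1.93 in L6b and 1.53 to 2.62 elsewhere, with both L2/3 arrays above both L5 arrays, and *Rims3* had 1.18 and 1.11 to 1.27. The gene of Bassoon, *Bsn*, had 0.97 in L6b and 0.95 to 1.15 elsewhere, and that of Piccolo, *Pclo*, had 2.86 and 2.54 to 3.07. *Erc2*, the gene of a scaffold of the ELKS family, had 4.17 in L6b and 3.85 to 4.27 elsewhere. L6b lay inside the range of the other arrays for all 6 genes.

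No gene of a vesicle protein was called apart in L6b, with differences of -0.30 to 0.55 over 9 genes. *Syp*, the gene of synaptophysin, had 5.74 in L6b and 5.85 to 5.92 elsewhere. The synapsin genes *Syn1*, *Syn2*, and *Syn3* had 3.18, 1.94, and -0.12 in L6b, with ranges of 3.04 to 3.42, 2.08 to 2.63, and -0.07 to 0.25 in the other arrays. *Sv2b*, which encodes a transporter-like vesicle glycoprotein, had 4.62 in L6b and 4.68 to 4.99 elsewhere. The synaptogyrin genes *Syngr1* and *Syngr3* differed by 0.33 and 0.38 over all 5 arrays.

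Of the 6 synaptotagmin genes whose proteins bind little or no calcium, only *Syt4* was called apart in L6b. L6b was the lowest array for 4 of them, against 30.5% of all genes, and their median difference was -0.46. For *Syt17* it was lowest by only 0.02, with 0.69 in L6b and 0.71 in association L5, and as deposited association L5 was the lowest array. *Syt11*, which acts in vesicle recycling, had 3.37, 4.64, and 4.91 in association neurons of L6b, L5, and L2/3, and 4.82 and 3.82 in callosal neurons of L5 and L2/3. It was 1.18 below the mean of the other arrays, and callosal L2/3 was the nearest at 0.45. *Syt13* had 1.99 in L6b and 2.10 to 2.25 elsewhere. *Syt12* and *Syt16*, at 1.41 and 0.67 in L6b, lay inside the range of the other arrays. Of the fast sensors, *Syt2* (0.33 to 0.44) and *Syt9* (-0.03 to 0.06) differed by at most 0.11 over the 5 arrays and lay near the array median.

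None of the remaining calcium-binding genes was 2-fold apart from every other array. *Syt3* had 1.19 in L6b and 1.25 to 1.28 elsewhere, but its deposited value was 6.99 in every array except association L5 (7.04). *Syt6* had 0.61 in L6b and 0.17 to 0.39 elsewhere. *Syt7*, a slow sensor of asynchronous release and vesicle replenishment, had 0.85 in L6b, 1.73 in association L5, and 0.51 to 0.90 in the remaining arrays. Its highest signal was thus in association L5, by 0.83. *Syt5* had 2.90, 1.83, and 2.72 in association neurons of L6b, L5, and L2/3, and 2.69 and 3.22 in callosal neurons of L5 and L2/3, and was lowest in association L5. *Doc2a* had 0.67 in L6b and 0.33 to 0.78 elsewhere.

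The same rule was then applied to the remaining arrays, each taken against all others. Association L5 had no member that was at least 2-fold higher, against 1.31% of all genes, and 1 that was lower (2.33%, against 0.823%). This was *Syt1*, the main fast calcium sensor of forebrain synapses, with 5.91, 4.87, and 5.93 in association neurons of L6b, L5, and L2/3, and 6.13 and 5.99 in callosal neurons of L5 and L2/3. Its signal lay within 0.22 in the other 4 arrays and was 1.04 lower in association L5 than in the nearest of them. Under subtraction of the 75th percentile, *Syt1* was no longer called.

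Association L2/3 had 1 member that was at least 2-fold higher (2.33%, against 2.34% of all genes) and none that was lower, against 0.158%. The higher gene was *Sv2c*, an isoform of the SV2 glycoproteins that is best known from the basal ganglia, with 0.11, -0.20, and 1.42 in association neurons of L6b, L5, and L2/3, and 0.16 and 0.17 in callosal neurons of L5 and L2/3. Callosal L5 had 1 higher member (2.33%, against 1.31%) and no lower one, against 0.356%. This was *Cadps2*, the gene of CAPS2, which promotes the release of dense-core vesicles. It had 1.11, 1.74, and 1.80 in association neurons of L6b, L5, and L2/3, and 2.85 and 1.77 in callosal neurons of L5 and L2/3. In callosal L2/3 no member was called, against 1.67% of all genes that were higher and 0.451% that were lower. *Sv2a*, whose protein is the binding site of the drug levetiracetam, came nearest, with 4.76, 4.30, and 4.45 in association neurons of L6b, L5, and L2/3, and 4.75 and 3.33 in callosal neurons of L5 and L2/3. Its gap of 0.97 became a call under each of 3 other scalings.

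Association and callosal neurons were compared within a layer. In L2/3, 4 members were at least 2-fold higher in association neurons and none was lower. They were *Sv2c* by 1.25, *Sv2a* by 1.12, *Syt11* by 1.09, and *Rab3c* by 1.02, and make up 9.3% of the members, against 5.07% of all genes that were higher and 3.48% that were lower. In L5, 1 member was higher, *Rab3c* by 1.02, which is 2.33% against 3.49% of all genes. Lower in association neurons of L5 were 3 members, 6.98% against 4.97% of all genes. Among the genes that reached the 75th percentile, the shares were 11.4% of members and 8.51% of genes for higher signals in L2/3, and 8.57% and 8.85% for lower signals in L5. *Sv2c* reached that percentile only in association L2/3. The association minus callosal difference in L5 was -1.29 for *Syt17*, -1.26 for *Syt1*, and -1.11 for *Cadps2*. The median differences over the members were 0.11 in L2/3 and -0.04 in L5, and over all genes they were 0.03 and -0.03.

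*Rab3c* was the only member at least 2-fold apart in the same direction in both layers. It encodes a further isoform of Rab3 on synaptic vesicles. In association neurons the signal was 2.27 in L6b, 3.02 in L5, and 3.59 in L2/3, and among callosal neurons it was 2.00 in L5 and 2.57 in L2/3. Association neurons were higher within each layer, and the L2/3 array of a projection was higher than its L5 array by 0.57 in both. L6b lay between the callosal arrays, so that association neurons as a whole did not stand above callosal neurons. As deposited, the differences were 0.99 in L2/3 and 1.05 in L5, so that the call in L2/3 depends on the scaling.

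**Figure D3:**
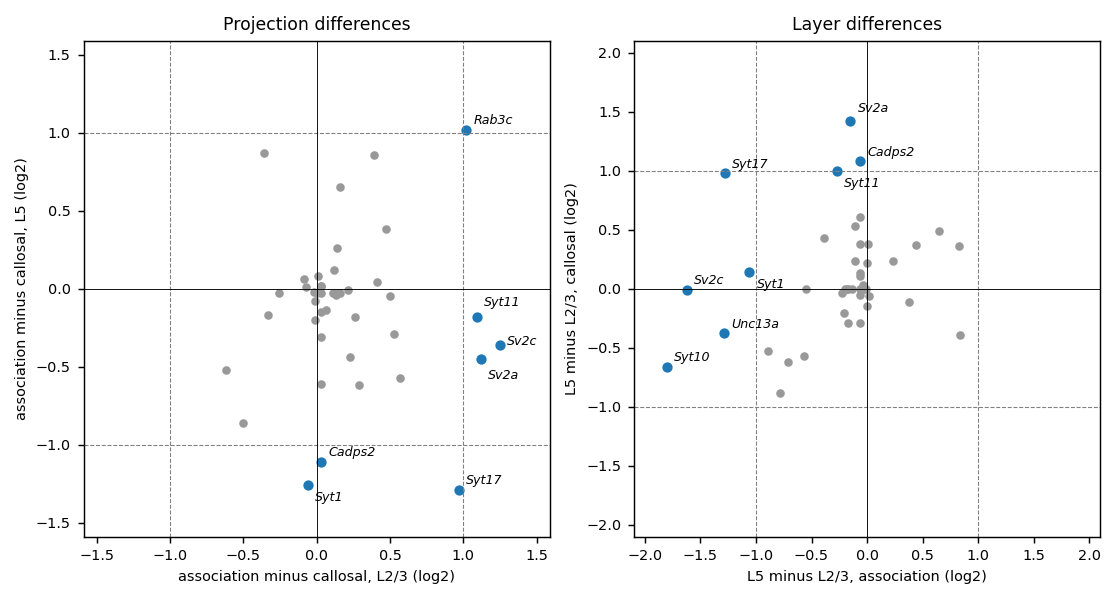
Differences in log2 signal of the 43 members past the filter, 1 point per gene, with association minus callosal in L2/3 (horizontal) and L5 (vertical) on the left, and L5 minus L2/3 in association (horizontal) and callosal neurons (vertical) on the right. Dashed lines mark 2-fold, and genes within 0.05 of it or beyond are named. *Rab3c* is the only gene beyond 2-fold on both axes in the same direction (1.02 and 1.02), and *Syt17* has opposite signs on both sides.

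L5 and L2/3 were then compared within a projection. Between the association arrays, no member was at least 2-fold higher in L5, against 3.48% of all genes, and 5 were lower, 11.6% against 7.36%. The L5 minus L2/3 difference was -1.80 for *Syt10*, -1.62 for *Sv2c*, -1.29 for *Unc13a*, -1.28 for *Syt17*, and -1.06 for *Syt1*. Between the callosal arrays, 3 members were higher in L5, *Sv2a* by 1.42, *Cadps2* by 1.08, and *Syt11* by 1.0, which are 6.98% against 4.08% of all genes. Among the genes that reached the 75th percentile, these shares were 14.3% of members and 12.6% of genes for lower signals in association L5, and 8.57% and 7.22% for higher signals in callosal L5. *Syt1* lost its call between the association arrays when the 75th percentile was subtracted, and *Syt11* lost its call between the callosal arrays under quantile normalization. No member was at least 2-fold lower in callosal L5, against 4.52%. No gene was called in both projections, except that *Syt17* was, in opposite directions, when the 75th percentile was subtracted. The layer and projection differences rest on the same 4 arrays. In callosal neurons the difference was -0.66 for *Syt10* and -0.38 for *Unc13a*, negative as in association neurons. For *Sv2c* it was -0.01, hardly a difference, and it was positive for *Syt17* (0.98) and *Syt1* (0.14). The remaining probe sets of *Unc13a* had -0.64 and -1.42 in association neurons, and 0.98 and -0.16 in callosal neurons.

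*Syt17*, a synaptotagmin relative also named B/K, had 0.69, 0.71, and 1.99 in association neurons of L6b, L5, and L2/3, and 2.00 and 1.02 in callosal neurons of L5 and L2/3. Association L2/3 and callosal L5 were thus high and nearly equal, and the remaining arrays were low. Neither the layer nor the projection ordered its signals.

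Within the association neurons, L6b was also set against L5 and L2/3 alone. Against L5, 4 members were at least 2-fold higher in L6b, 9.3% against 3.5% of all genes, namely *Syt10* by 3.69, *Rab3b* by 1.52, *Syt5* by 1.07, and *Syt1* by 1.04. Another 4 were lower, 9.3% against 7.16%, with differences of -3.02 for *Syt4*, -1.85 for *Stx1a*, -1.27 for *Syt11*, and -1.0 for *Nsf*. Among the genes that reached the 75th percentile, the shares against L5 were 11.4% of members and 6.29% of genes for higher signals, and 11.4% and 12.6% for lower ones. Against L2/3, *Syt10* (1.89) and *Rab3b* (1.46) were higher, 4.65% against 2.83% of all genes. Lower in L6b were 9 members, 20.9% against 10.6%, or 25.7% against 18.5% among the genes that reached the 75th percentile. They were *Syt4* (-2.18), *Syt11* (-1.54), *Unc13a* (-1.48), *Stx1a* (-1.47), *Rab3c* (-1.32), *Sv2c* (-1.31), *Syt17* (-1.30), *Nsf* (-1.17), and *Cadps* (-1.0). For *Unc13a*, another probe set had 2.37 in L6b and 1.80 in association L2/3, the reverse order, and the remaining one had 1.52 and 3.95. The comparisons of L6b with L5 and L2/3 share the L6b array. Under each of the other scalings, the count of lower members against L2/3 was 8, where *Cadps* was not called. Against L5 it was 3 under each of them, where *Nsf* was not called, so the excess over all genes there depends on the scaling.

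**Figure D4:**
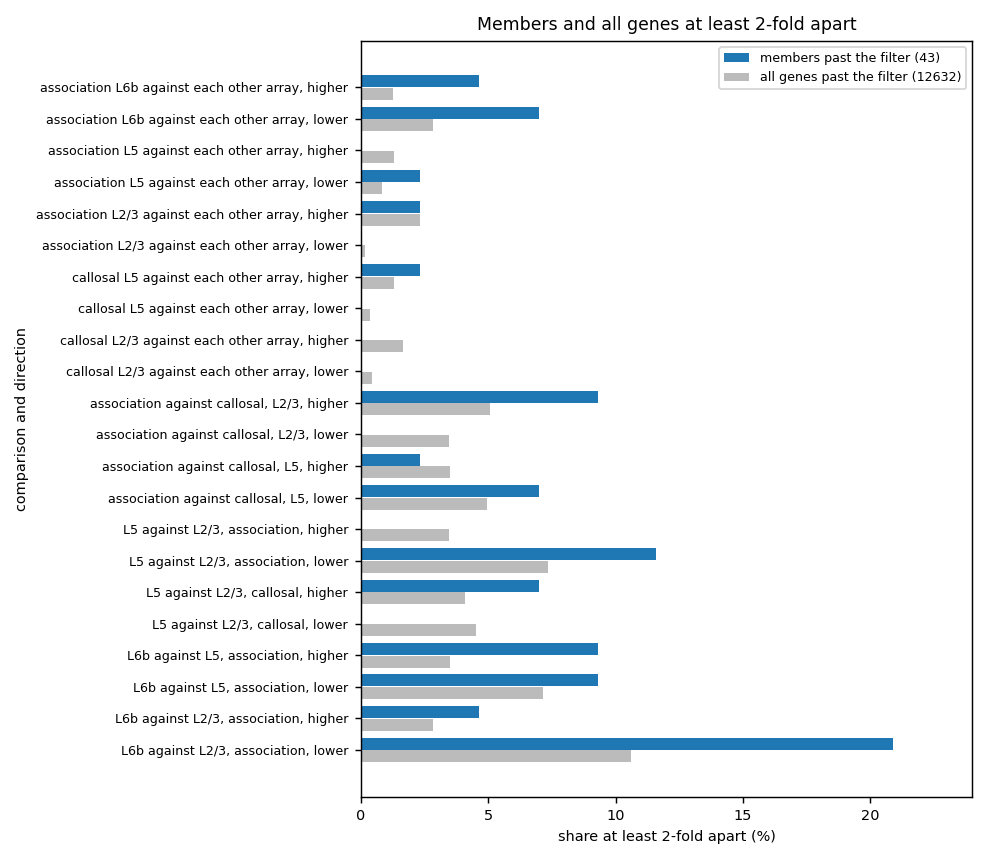
Share of genes at least 2-fold apart in percent (horizontal axis) for each comparison and direction (vertical axis), with the 43 members past the filter in blue and all 12632 genes past the filter in grey. The longest bar is that of L6b lower than L2/3 in association neurons (20.9% of members, 10.6% of all genes). A share of 2.33% stands for 1 member.

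The array with the lowest and the highest signal was then counted for each member. Of the 43, 18 (41.9%) had their lowest signal in L6b, against 30.5% of all genes, and as deposited, where ties are left as such, the count was 15 (34.9%, against 17.4%). L6b was the highest array for 7 members (16.3%, against 21.3%). The L6b array had the highest median (5.80) but the lowest 75th percentile (6.84, with 6.86 to 6.91 elsewhere). Bright genes thus tend to lie lower there, and most members are bright. The lowest array was not counted among the brighter genes alone, here or for the groups above. Association L2/3 was the lowest array for 1 member (2.33%, against 19.6%), or for 4 as deposited (9.3%, against 25.4%). It was the highest array for 16 members (37.2%, against 27.4%), or for 11 as deposited (25.6%, against 17.2%). The range over the arrays was at least 2-fold for 19 members (44.2%, against 29.5%), and among the brighter genes for 54.3% of members and 49.6% of genes. The medians of this range were 0.61 for members and 0.53 for all genes.

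Other genes of the pathway were described from 2 further lists. Of 41 other release genes past the filter, L6b exceeded every other array by at least 2-fold for 1 gene, against 1.26% of all genes. It fell short of every other by that much for 1, against 2.82%, and the median difference was -0.10. The higher gene was the complexin gene *Cplx3*, with 5.22 in L6b and -0.37 to 0.39 elsewhere. *Cplx3* is also on the L6b and subplate list above, so this is not a separate result. *Cplx1*, a complexin gene of most brain synapses, had 3.74 in L6b and 4.36 to 5.15 elsewhere, and *Cplx2* had 2.89 and 3.05 to 3.40. The lower gene was *Stxbp5l*, which encodes a tomosyn that binds syntaxin, with 1.53 in L6b and 2.93 to 3.37 elsewhere. *Ppfia2*, a liprin gene of the active zone, had 1.84, 1.99, and 5.29 in association neurons of L6b, L5, and L2/3, and 3.66 and 4.17 in callosal neurons of L5 and L2/3. *Snap23*, a relative of *Snap25*, had -0.72 in L6b and 0.20 to 2.12 elsewhere, so its difference rests on a dim signal in L6b. Genes of vesicle endocytosis had a median difference of -0.03 over 23 genes, and none was called apart in L6b, against the same 1.26% and 2.82% of all genes. The largest differences among these were -1.10 for *Ap2s1*, -0.88 for *Syndig1*, -0.85 for *Ap2m1*, and 0.51 for *Sh3gl2*, of which *Ap2s1* and *Ap2m1* encode subunits of the clathrin adaptor AP-2. *Syndig1* stands on the list but is known for its part in AMPA receptor synapses, not in vesicle endocytosis.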

How the data were processed

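RNA of microdissected S1 neurons was amplified and measured on Affymetrix mouse gene arrays. The authors deposited 1 table of log2 signals for 35556 probe sets in 5 arrays. They were made with Affymetrix Expression Console, per the submitters' processing notes. Neither the software version nor the way probes were summarized is stated in the sources used here. The methods describe log transformation, global normalization, and centering, but the deposited values are not centered per gene.

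An annotation of the platform gave 1 symbol for 21789 probe sets, several for 1621, and none for 12146. All 53 probe sets of the members were matched by Entrez identifier to the RefSeq gene table, with the same symbol. The array median was subtracted, and the probe set with the highest mean represented a gene. Of 45 members, 43 were read by 1 probe set. Genes that reached the median in at least 1 array were compared. Alternatives were other scalings, other filters on dim genes, the mean of all probe sets, and omission of an array. The members, lists, and rules were chosen with earlier results of these data known. Values in all arrays were printed for members called apart in any array, for the largest and smallest differences between L6b and the other arrays, for members called in both layers, and for others where their arrays are discussed. The rules were run on simulated arrays with changes larger than 2-fold. How often a change near that limit is called was not tested. Python 3.11.15, pandas 2.3.3, numpy 2.4.6, and matplotlib 3.10.9 were used. The number of arrays limits the precision of every value.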

Additional observations from a re-analysis of the deposited data

Results flagged for a closer look

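The association minus callosal difference of *Syt17* had opposite signs in the layers, 0.97 in L2/3 and -1.29 in L5. Seen by layer, the L5 minus L2/3 difference was -1.28 in association neurons and 0.98 in callosal neurons. These are the same 4 arrays, the gene was picked out because each of the differences was at least 1.5-fold, and the difference between the layers or projections was not tested.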

How the results depend on the processing

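With 1 array per group and dim signals near the array median for several members, small differences cannot be told from noise. The median difference of the members between L6b and the mean of the other arrays was -0.12, and -0.0175 when the 75th percentile of each array was subtracted. Under that scaling the count of members lower in association L5 than in each other array was 0 in place of 1. The count lower in callosal L2/3 was 1 in place of 0 as deposited, under the 75th percentile, and under quantile normalization. *Nsf* lost its call in L6b under these scalings, as did *Cadps* against L2/3, and *Rab3c* in L2/3 lost its call as deposited and under the 75th percentile. Between layers, *Syt1* lost its call in association neurons and *Syt17* gained one in callosal neurons under the 75th percentile, and *Syt11* lost its call in callosal neurons under quantile normalization. When callosal L2/3 was left out, *Syt11* was called too, and 4 members were lower in L6b. The other counts stayed within 1.5 times under the scalings, filters, and probe set choice tried. Arrays were left out only for the comparison of L6b with the others, where the counts stayed within 1.5 times.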
